A study of Saccharomyces cerevisiae with 2 samples.

Results

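The outer 50 kb of every nuclear chromosome end of budding yeast (Saccharomyces cerevisiae) was divided into consecutive windows of 1 kb, counted inwards from the end. The 16 nuclear chromosomes have 32 ends, which gave 1600 windows out of 12063 windows of 1 kb in the nuclear genome. The windows were set by position alone. The 10463 windows more than 50 kb from both ends are called the rest of the nuclear genome.

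The measurement was DRIP-seq, in which restriction-cut genomic DNA is immunoprecipitated with S9.6 and sequenced. This antibody recognises RNA:DNA hybrids and can also bind double-stranded RNA. There was 1 S9.6 immunoprecipitate and 1 input, both from asynchronous cells in mid-log growth in YPAD at 30 °C, amplified over the whole genome and read on an Ion Torrent instrument from 200 bp fragments. Values exist here for the immunoprecipitate alone. Both libraries came from strain WRBb-9D, labelled wild type, which is MATa and carries bar1-delta, RRM3::FLAG::KAN and ura3::URA3/GPD-Tk(7x), beside the alleles ade2-1, can1-100, trp1-1 and his3-11,15 and a mutant allele of LEU2. The series title speaks of R loops and of unstable telomeres, which sets the question of where peaks lay near chromosome ends. The data are the 1687 nuclear intervals of the peak list deposited by the authors, called here peaks; read depth is unknown. With 1 immunoprecipitate there is no replicate, so no difference below was tested. Shares are followed in brackets by their 95% interval (exact, Clopper-Pearson). This takes in counting error alone, and neighbouring windows can share a peak.

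A yeast chromosome ends in TG-rich telomeric repeats, followed inwards at some ends by Y' elements that encode helicases, and then by an X element. Sir proteins bound there silence nearby genes, and the repeats are transcribed into TERRA, an RNA that can form RNA:DNA hybrids at telomeres. Further in lie gene families with many similar copies, for cell wall proteins, flocculation, sugar use and iron uptake, many of which are little expressed in rich glucose medium. Near-identical copies share sequencing reads, and the sources used here do not say how such reads were treated. Values of single members of any family with such copies, among them Y', PAU, COS, ERR, Ty and mating type loci, are therefore uncertain. Positions are those of the reference, and the elements present at each end of this strain are not known from these data.

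Peaks touched few of the windows. Of the 1600, 179 held at least 1 bp of a peak, or 11.2% (9.68 to 12.8%), against 2087 of 10463 in the rest of the nuclear genome, or 19.9% (19.2 to 20.7%). The share over all nuclear windows was 18.8%. A window was counted as covered when at least 50% of it lay inside peaks, which held for 21 windows, or 1.31% (0.814 to 2.0%), against 588, or 5.62% (5.19 to 6.08%), in the rest, with 5.05% over all nuclear windows. The other 1421 windows in the outer 50 kb were empty. In touched windows the median overlap was 250 bp, and 3 windows lay wholly inside peaks. In bases, 3.28% of the outer 50 kb and 7.99% of the rest lay inside peaks, a ratio of 0.41. The outer 50 kb thus made up 13.3% of nuclear bases and 5.90% of nuclear peak bases.

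Cover was highest in the outermost kb and low over most of the next 45 kb. In the window nearest the end, 15.1% of bases lay inside peaks and 11 of 32 ends were touched. The next windows had 5.11%, 9.37%, 7.94% and 4.06%, with 4, 9, 8 and 4 ends touched. Together the outermost 5 kb had 8.31% of bases inside peaks, close to the 7.99% of the rest of the nuclear genome, and 20 ends had a peak there. From 5 to 10 kb the share was 1.95%, and over 5 to 50 kb it was 2.72%. The lowest 5 kb bin lay at 25 to 30 kb, with 1.61% of bases and 10 of 160 windows touched. A locally higher stretch at 15 to 20 kb, with 3.95%, came largely from the right end of chromosome VIII, without which it was 1.91%, a value computed after the profile was seen. Further in, 5.80% of bases were inside peaks at 50 to 75 kb and 7.79% at 75 to 100 kb. No single distance was shared by most ends, since the median 1 kb step was touched at 3 of 32 ends.

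**Figure D1:**
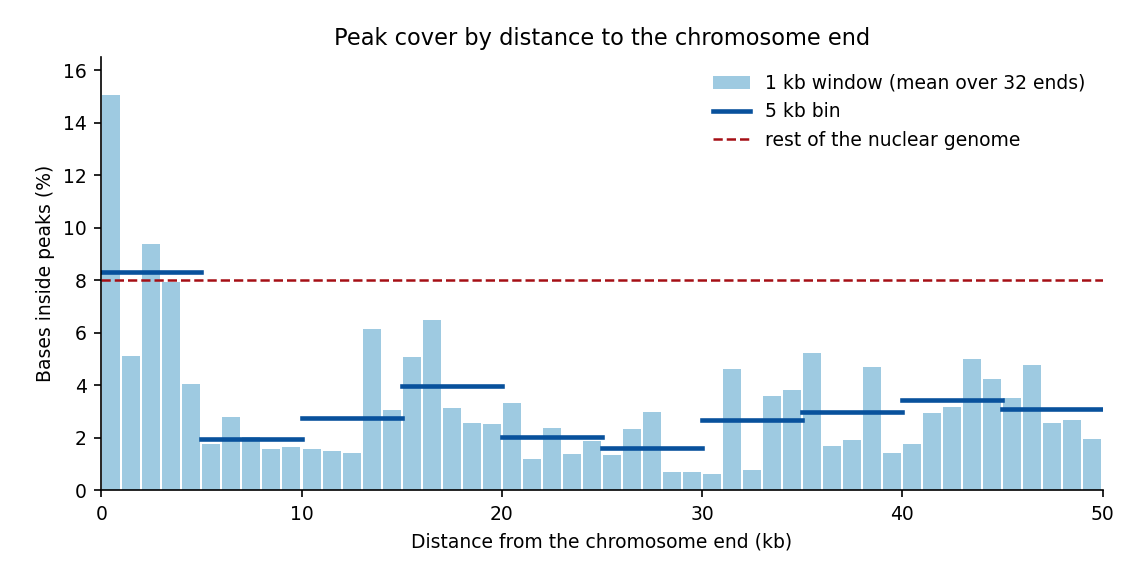
Percent of bases inside peaks (vertical axis) against distance from the chromosome end in kb. Light bars are 1 kb windows averaged over 32 ends, dark lines are 5 kb bins, and the dashed line is the rest of the nuclear genome at 7.99%. The outermost window stands at 15.1%, and each 5 kb bin from 5 kb inwards lies below 4%.

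The deficit lay in peaks of higher score. The score is the authors' value per peak, on a scale the sources used here do not state, and it serves only to rank peaks within this list. The median score of nuclear peaks was 24. Peaks scoring 24 or more occurred 2.69 times per 100 kb in the outer 50 kb, against 7.68 times in the rest, and covered 1.44% and 5.97% of bases. Peaks scoring under 24 occurred 6.44 times per 100 kb in the outer 50 kb, against 7.04 times in the rest, and covered 1.84% and 2.03%. In the outermost 5 kb, the higher-scoring peaks covered 4.67% of bases and the lower-scoring ones 3.64%. From 5 to 50 kb these shares were 1.08% and 1.64%. Every end had a lower-scoring peak in its outer 50 kb, while 10 of the 32 had no higher-scoring one.

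The 146 peaks of the outer 50 kb were also slightly narrower at the median, though not those within 5 kb of the end. Their median width was 275 bp and the longest was 2025 bp, against a median of 325 bp and a longest of 12575 bp among the other 1541 nuclear peaks. Their median score was 15.5 and the highest 160, against 26 and 679 in the rest. The most frequent score, 15, was held by 72 of the 146 and by 379 of the 1541. Peaks that touched a tRNA gene or a Ty ORF numbered 7 of the 146, or 4.79% (1.95 to 9.63%), against 162 of the 1541, or 10.5% (9.03 to 12.2%). Away from tRNA genes and Ty ORFs, the median scores were 15 in the outer 50 kb and 23 in the rest, and the median widths 275 and 300 bp. Peaks within 5 kb of the end had a median width of 325 bp.

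**Figure D2:**
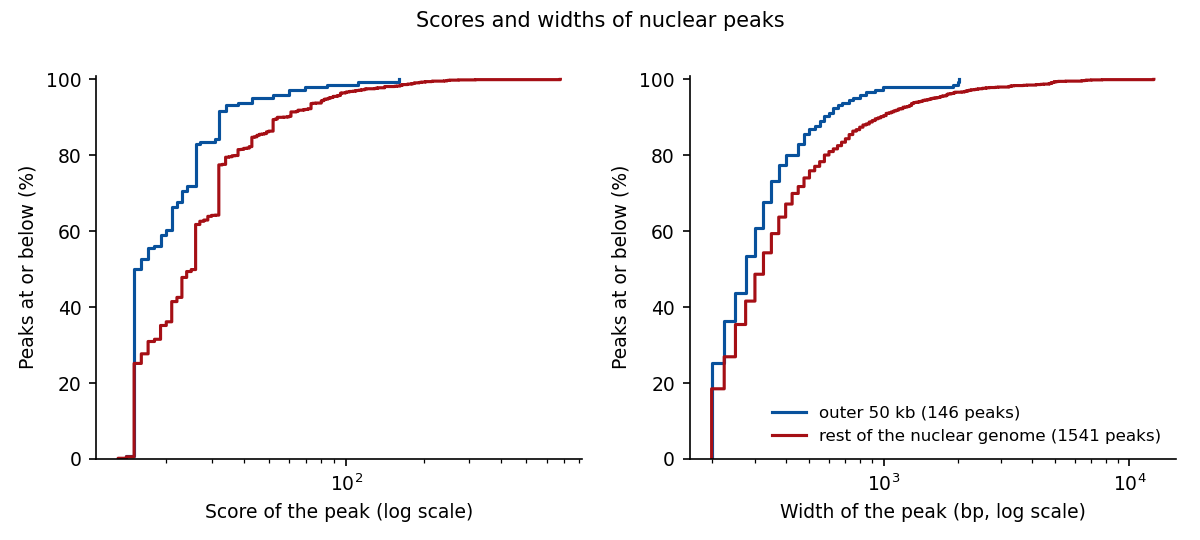
Cumulative percent of peaks (vertical axes) at or below a given score (left) and width in bp (right), both on log axes, for the 146 peaks of the outer 50 kb and the 1541 of the rest. The curve of the outer peaks lies left of the other over most of both ranges, with medians of 15.5 against 26 for score and 275 against 325 bp for width.

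Outer peaks often lay between genes. Of the 146, 57 touched no annotated gene, or 39.0% (31.1 to 47.5%), against 205 of 1541, or 13.3% (11.6 to 15.1%), in the rest. Gaps between genes make up 38.3% of outer bases and 24.7% of the others, so more gap was there to be met. Both kinds of sequence had less cover near the ends: 2.05% of gene bases and 4.27% of gap bases in the outer 50 kb, against 5.53% and 10% in the rest, leaving out Ty ORFs. The outermost 5 kb stood out in its gaps, with 16.1% of their bases inside peaks and 3.03% of gene bases. From 5 to 50 kb, gaps had 2.87% and genes 1.94%. Of the 11 peaks within 1 kb of an end, 9 touched no gene. These 11 scored 15 to 32 and were 200 to 991 bp wide.

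The 32 ends differed among themselves. The share of bases inside peaks ran from 0.85% to 10.5%, with a median of 2.98% and a middle range from 1.68% to 4.16%. All but 2 lay below the interior of their own chromosome, which had from 5.30% to 13.8%. Each end had between 2 and 10 peaks, and 12 ends had 3 or fewer. The left end had more cover than the right on 11 of 16 chromosomes. As groups, left ends had 3.43% and right ends 3.13% of bases inside peaks.

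**Figure D3:**
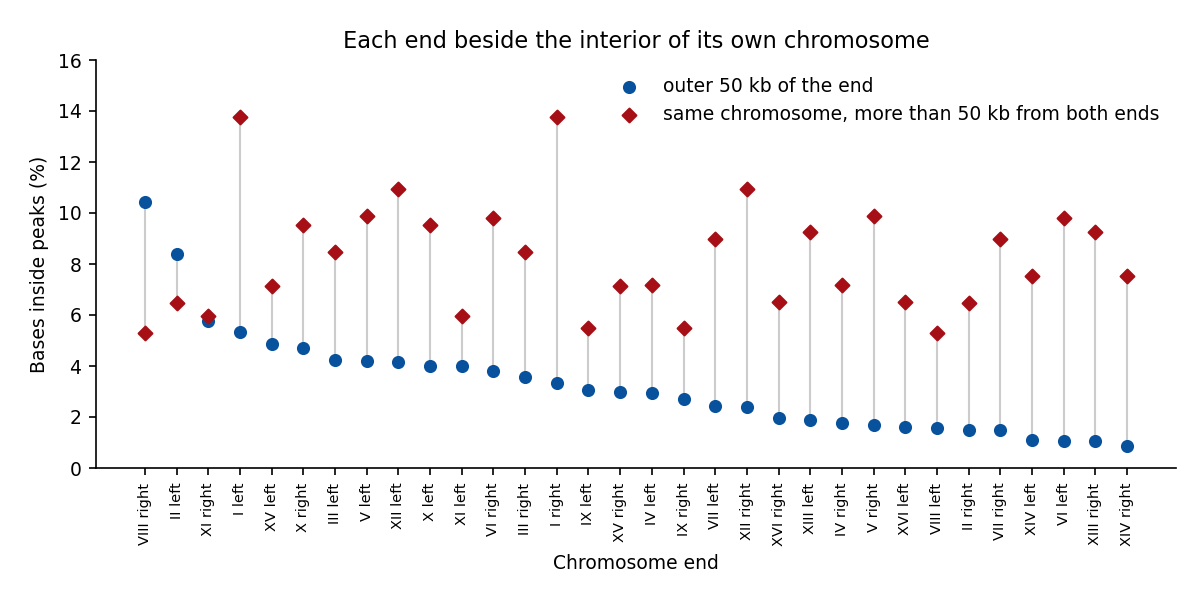
Percent of bases inside peaks in the outer 50 kb of each end (circles), beside the part of the same chromosome more than 50 kb from both ends (diamonds), with ends ordered by cover. The right end of chromosome VIII and the left end of chromosome II lie above their own interior, and the other 30 ends below it.

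The right end of chromosome VIII had most cover, 10.5% of its outer 50 kb, which was 1.97 times its chromosome's interior. Its 3 highest peaks, with scores of 160, 111 and 43, lay at 544026 to 546025, 546276 to 548300 and 548901 to 549825. They fell on YHR214C-B (543964 to 549346), 13297 bp from the end and 83.1% inside peaks, and its nested partner YHR214C-C, 58.2% inside peaks. This pair of ORFs with a shared start was classed with the Ty ORFs, the frames of retrotransposons. Without peaks at tRNA genes and Ty ORFs, 0.55% of this end was left inside peaks. YHR219W, an ORF with no gene name 596 bp from the end, had no peak, nor did any of the outermost 12 windows of this end.

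The left end of chromosome II came next, with 8.40% and the largest number of peaks, 10. Its highest peak, with a score of 84, ran from 33801 to 35725 over YBL100W-B (29935 to 35248), a Ty ORF that was 34.8% inside peaks. Among the others, a peak with a score of 60 at 9051 to 9325 touched no gene. The tRNA gene YNCB0001W, nearby at 9583 to 9666, had no base inside a peak and was looked up afterwards. The other peaks lay between 8426 and 44200, several of them from 37401 inwards. They also included a peak with a score of 32 that touched MRX3, which encodes a mitochondrial protein (43277 to 44089, 14.0% inside peaks). Without peaks at tRNA genes and Ty ORFs, 3.75% of this end was inside peaks. YBL113C, its outermost ORF, had none.

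At the right end of chromosome XI, with 5.78%, the cover lay next to the telomere. Peaks that began at 665826 (score 32) and lay at 664726 to 665575 (score 24) and 664201 to 664400 (score 19) filled 40.8% of the outermost 5 kb, and the first, 991 bp wide, reached the last base of the chromosome. None of the 3 touched a gene. GEX2, a glutathione exchanger 3527 bp from this end, had no peak. Similar runs of peaks marked the left end of chromosome I, with 38.5% of its outermost 5 kb inside peaks, and the right end of chromosome X, with 31.0%. The left ends of chromosomes X and XII likewise had a peak that began at base 1, with scores of 21 and 26.

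The ends with least cover held 2 short peaks each. On the right end of chromosome XIV, with 0.85%, these lay over MAN2, a mannitol dehydrogenase gene (774792 to 776300, 14.9% inside peaks), and over YNR065C (750350 to 753700, 5.97%), each with a score of 15. YNR077C, its outermost ORF, had no peak. The left end of chromosome VI, with 1.05%, had peaks of score 32 and 15, the first over YFL066C (1437 to 2615, 27.6% inside peaks), and then 43775 bp without a peak, from 6226 to the inner edge of the windows at 50000. That stretch holds COS4, AAD6, THI5, SNZ3, SNO3 and AQY3 among 20 genes. The right end of chromosome XIII, also with 1.05%, had a peak of score 26 over GAS1, a glucanosyltransferase of the cell wall (887003 to 888682, 12.3%), and 1 of score 15 over ERR3. PAU19, 1416 bp from that end, had none. Across ends, the longest stretch without a peak, counted no further in than 50 kb, ran from 10950 to 43775 bp, with a median of 23463 bp.

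Peaks at the very end, within 1 kb of the last base, occurred at 11 ends, 7 of them left ends. At the right end of chromosome X this peak had a score of 26 and lay at 745001 to 745625. Those at the left ends of chromosomes I (126 to 625), III (601 to 950), IX (126 to 425) and XV (351 to 550) had scores of 15, 17, 20 and 23. The right ends of chromosomes IX (439401 to 439775) and XV (1090926 to 1091200) had scores of 17 and 18. The 2 that touched a gene were at the left ends of chromosomes XII, over YLL067C, and XVI, over YRF1-7 (201 to 400, score 20). In contrast, 12 ends had no peak in their outermost 5 kb. The right end of chromosome IV had its first peak 28333 bp from the end, beyond YRF1-1 and PAU10, and the left end of chromosome XIV had its first at 19700 bp, beyond YRF1-6, COS1, SNO2, SNZ2, THI12 and AAD14. On the right end of chromosome III the outer 16545 bp were empty, with PAU3 and AAD3 in them.

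Some ends with a peak near the telomere had long empty stretches further in. The left end of chromosome XVI had its terminal peak and then 38400 bp without one, from 401 to 38800, past PAU22, ERR2 and SAM3. The right end of chromosome XV was empty over 35350 bp, past YRF1-8, PAU21, ERR1, FIT2, FIT3 and FRE5, and the right end of chromosome IX over 42350 bp that hold 23 genes. On the right of chromosome VII there was a peak 2390 bp from the end, followed by 34925 empty bp with the maltose genes MAL11, MAL12 and MAL13, and with IMA1, PAU12, COS6 and BIO2. The genes named here are the members of the 15 families that lie wholly inside each stretch. YRF1-7 and YRF1-3 reach into those of chromosomes XVI and VII.

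Some of the higher-scoring peaks touched no annotated gene. The right end of chromosome I had 1 with a score of 60 at 183176 to 183525 and 1 with a score of 32 at 181326 to 181650. The latter lay beside the tRNA gene SUP56 (181141 to 181254), which was looked up after the peak was seen. The left ends of chromosomes IV, at 3026 to 3275, and X, at 7026 to 7225, each had 1 with a score of 34. What these gaps contain other than genes is not annotated in the table used.

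**Figure D4:**
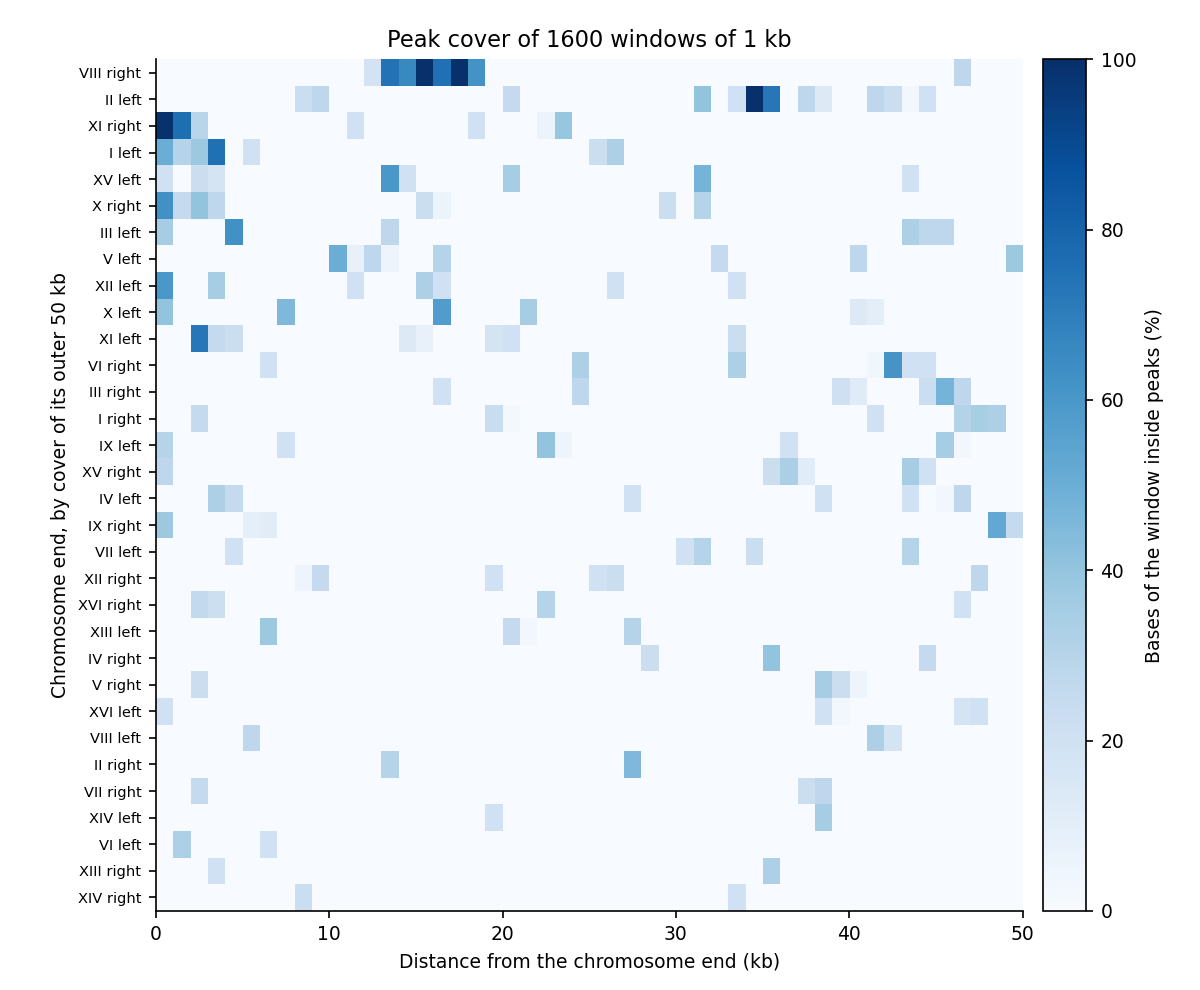
Peak cover of each 1 kb window (shade, percent of the window inside peaks) by distance from the chromosome end in kb (horizontal axis) for 32 ends ordered by cover (vertical axis). The darkest blocks are the Ty ORFs at 13 to 19 kb on VIII right and at 34 to 36 kb on II left, and the outermost windows of XI right; 1421 of the 1600 windows are empty.

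The 21 covered windows fell on 13 ends. Of these windows, 8 held a Ty ORF, 8 held no gene, and 8 lay in the outermost 5 kb. Windows without any gene were touched in 43 of 220 cases, or 19.5% (14.5 to 25.4%). Windows with a tRNA gene were touched in 5 of 10 and those with a Ty ORF in 10 of 13. Windows with a gene of the 15 families below were touched in 35 of 324, or 10.8% (7.64 to 14.7%). Windows with other genes only were touched in 86 of 1033, or 8.33% (6.71 to 10.2%). The other 5 covered windows overlapped RSC8 and CDC26, FLO11, VTH2 and IMA4, PAU16, and YLL067C. Of these genes CDC26 and IMA4 had no base inside a peak, and they, VTH2 and YLL067C were named after their values were seen.

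Genes in the outer 50 kb were touched less often than those in the rest, though this was less clear within 5 kb of the end. Of 684 protein-coding genes with at least 50% of their length in the outer 50 kb, 77 were touched, or 11.3% (8.99 to 13.9%), against 1197 of 5318, or 22.5% (21.4 to 23.7%), in the rest, with 21.2% over all nuclear protein-coding genes. The 50% limit was also applied to genes. It was met by 6 of the 684, or 0.877% (0.323 to 1.90%), and by 259 of the 5318, or 4.87% (4.31 to 5.48%), with 4.42% over all. Without Ty ORFs, 74 of 680 outer genes were touched, or 10.9% (8.64 to 13.5%), and 4 were covered, against 1128 and 204 of 5244 in the rest. Of these outer genes, 11 of 56 within 5 kb of the end were touched, or 19.6% (10.2 to 32.4%). From 5 to 50 kb 63 of 624 were touched, or 10.1% (7.85 to 12.7%), against 21.5% in the rest. The median share of a touched gene that lay inside peaks was 13.9% in the outer 50 kb and 18.9% in the rest. The intervals for the direction of reading overlapped: 45 of 365 genes reading towards the end were touched, or 12.3% (9.14 to 16.1%), and 29 of 315 reading away from it, or 9.21% (6.25 to 13%). Of the 9 tRNA genes in the outer 50 kb 2 were touched, against 89 of 266 in the rest, with 33.1% of all nuclear tRNA genes touched. Of the 4 Ty ORFs there 3 were touched, against 69 of 74 in the rest, with 92.3% over all.

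The 6 covered protein-coding genes were PAU8, YHR214C-B, YFR035W-A, YHR214C-C, YHL048C-A and HMLALPHA1. PAU8, a seripauperin gene (chromosome I, 1807 to 2169), was 100% overlapped by a peak of score 26 at 1701 to 2375. YFR035W-A (chromosome VI, 226260 to 226550) and YHL048C-A (chromosome VIII, 5663 to 5797) are short ORFs without a gene name, 68.7% and 53.3% inside peaks with scores of 19 and 15. The highest score away from Ty ORFs was 69, for a peak within RSC8, a subunit of the RSC chromatin remodeller (chromosome VI, 227513 to 229186, 38.8% inside peaks). FIG2, a mating adhesin of the cell wall (chromosome III, 267434 to 272263), carried separate peaks with scores of 38, 32 and 23 that together took up 20.2% of the gene. POF1 (chromosome III, 43661 to 44437) had 34.1% of its length under a peak of score 32.

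The 15 families, chosen by gene symbol, had 132 genes in the outer 50 kb, of which 22 were touched, or 16.7% (10.7 to 24.1%), and 2 covered. Not all families are confined to the ends: 17 of 27 vitamin genes and 11 of 20 HXT genes lie further in. The 132 include the pseudogenes HXT12 and AAD6, neither of them touched. Among 550 protein-coding genes there outside the families and the Ty ORFs, 52 were touched, or 9.45% (7.14 to 12.2%). Family genes lie closer to the end, with a median distance of 12486 bp against 30128 bp. Within 20 kb of the end 14 of 92 family genes and 11 of 154 other genes were touched, or 15.2% (8.58 to 24.2%) and 7.14% (3.62 to 12.4%). From 20 to 50 kb the counts were 8 of 40 and 41 of 396, or 20% (9.05 to 35.6%) and 10.4% (7.53 to 13.8%). With peaks scoring 24 or more alone, 7 of the 132 family genes were touched. Among them were 2 PAU, DAN and TIR, 2 YRF1, 1 COS and 1 FLO gene, with 0 for sugar use and iron uptake. The share of other genes touched at this score was not computed. In the rest of the nuclear genome, with all peaks, 7 of 45 members of these families were touched, or 15.6% (6.49 to 29.5%).

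**Figure D5:**
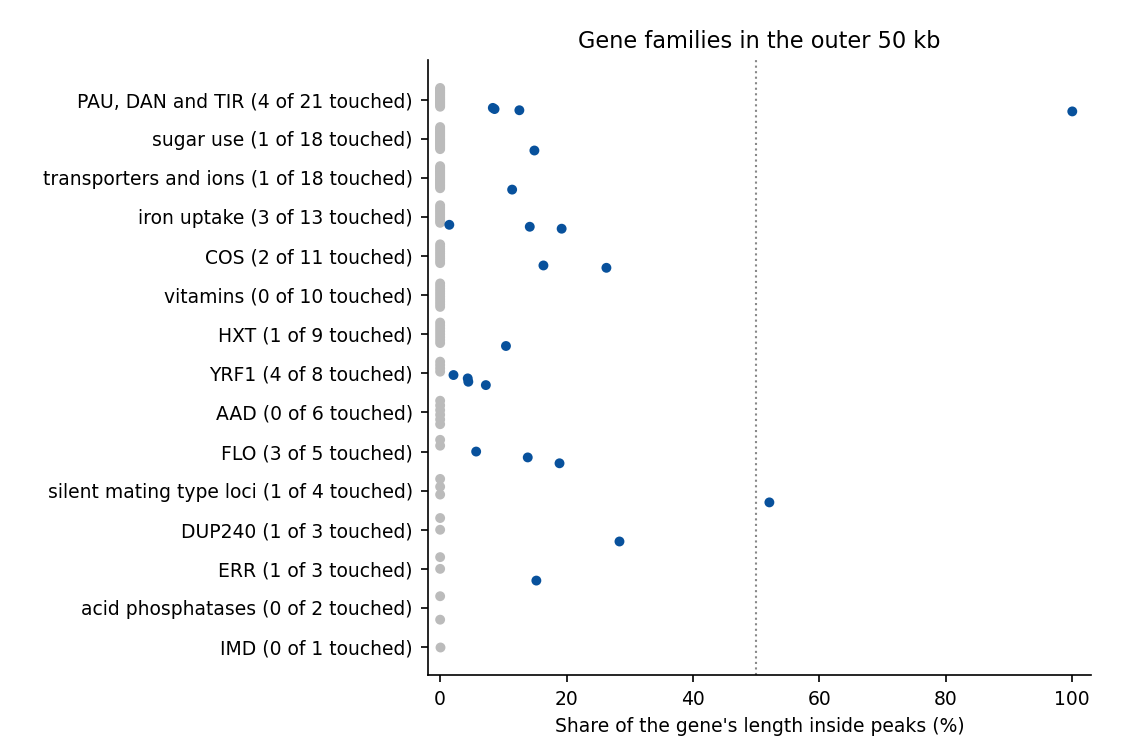
Share of each gene's length inside peaks (horizontal axis, percent) for the members of 15 families in the outer 50 kb; each point is a gene, grey at 0 and blue where touched, and the dotted line marks 50%. PAU8 at 100% and HMLALPHA1 at 52.1% are the only points beyond it.

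Members of both cell surface families were touched, beside the 10.9% of outer protein-coding genes without Ty ORFs. Of 21 PAU, DAN and TIR genes, which encode cell wall mannoproteins made mostly under low oxygen, 4 were touched, or 19.0% (5.45 to 41.9%). Beside PAU8 these were PAU15 (chromosome IX, 12.5% inside peaks, score 15), DAN4 (chromosome X, 8.61%, score 21) and PAU16 (chromosome XI, 1810 to 2181). PAU16 had 8.33% of its length under a peak with a score of 52, the highest within 5 kb of any end, which lay mainly beside the gene at 2151 to 2875. DAN1 and PAU21 were among the 17 with no peak. Of 5 FLO genes, the flocculins that bind cells to each other or to surfaces, 3 were touched, or 60% (14.7 to 94.7%). FLO11 (chromosome IX, 389572 to 393675) had 18.9% of its length under 2 peaks, at 390901 to 391425 with a score of 32 and at 390126 to 390375 with a score of 14. FLO9 (chromosome I) had 13.9% and FLO10 (chromosome XI) 5.70%, both under a peak of score 15. FLO1 (chromosome I, 203403 to 208016), the longest of them, and FLO5 had no peak. These genes are 3228 to 4614 bp long, against a median of 1097.5 bp for outer protein-coding genes without Ty ORFs. Longer genes are touched more easily. By bases, 7.85% of the FLO genes lay inside peaks, beside 2.05% of outer gene bases.

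YRF1 genes lie closest to the telomere of the families by median distance, 349 bp. They encode the helicases of Y' elements, and 4 of the 8 were touched (15.7 to 84.3%), each over a small part: YRF1-4 (chromosome XII, 7.23% inside peaks, score 26), YRF1-2 (chromosome V, 4.46%, score 32), YRF1-3 (chromosome VII, 4.36%, score 15) and YRF1-7 (chromosome XVI, 2.11%, score 20). YRF1-6 and YRF1-1 had none. Long genes are touched more easily when 1 bp suffices. YRF1-6 is 5728 bp long, against a median of 1097.5 bp for outer protein-coding genes without Ty ORFs, of which 10.9% were touched. By bases, 2.11% of the YRF1 genes lay inside peaks, beside 2.05% of outer gene bases. The 7 ends with a YRF1 gene had 1.86% of their outer 50 kb inside peaks, against 3.67% at the 25 ends without one. In the outermost 5 kb the shares were 2.71%, from 0 to 5.50% by end, and 9.87%, from 0 to 40.8%, so the ranges overlap. A peak lay in the outermost 5 kb of 4 of the 7 and of 16 of the 25. The gene table does not mark Y' elements as such, so the 25 ends may hold some. The split is by YRF1 gene alone and not by Y' element. The 25 also include the right end of chromosome VIII, with 10.5% of its outer 50 kb inside peaks. COS genes encode membrane proteins that help sort other membrane proteins to the vacuole, and 2 of 11 were touched (2.28 to 51.8%): COS5 (chromosome X, 742848 to 743999), with 26.3% under 2 peaks of scores 32 and 26, and COS9 (chromosome XI, 16.3%, score 15). COS7 and COS1 had none.

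In the families for nutrients, the shares touched lay on both sides of that 10.9%, and each interval included it. They were 5.56% (0.141 to 27.3%) both for sugar use and for other transporters and ions, 11.1% (0.281 to 48.2%) for HXT genes, 23.1% (5.04 to 53.8%) for iron uptake and 0% (0 to 30.8%) for vitamins. Of 18 genes of sugar use, which include the MAL and IMA loci for maltose and isomaltose, MAN2 alone was touched, and MAL11 and MAL31, both maltose permeases, had no peak. Of 9 HXT hexose transporter genes, HXT14 (chromosome XIV, 10.4%, score 15) was touched, and HXT8 and HXT11 were not. Of 18 genes for other transporters and ions, OPT2, an oligopeptide transporter (chromosome XVI, 11.4%, score 15), was touched, while SUL1, a sulphate permease, and AQY3, an aquaporin-like gene, were not. Of 13 iron uptake genes 3 were touched, all with a score of 15: ENB1, a siderophore transporter (chromosome XV, 19.2%), FIT1, a cell wall protein that retains siderophores (chromosome IV, 14.2%), and FRE3, a ferric reductase (chromosome XV, 1.45%). FRE4 and FRE6 had no peak. No peak touched any of 10 vitamin genes, among them BIO2 and BIO3 of biotin synthesis, 6 AAD aryl-alcohol dehydrogenase genes, among them AAD14 and AAD6, the acid phosphatase genes PHO11 and PHO12, or IMD2, an IMP dehydrogenase gene. For 0 of the 6 AAD genes the interval reaches 45.9%, so this count does not set them apart. Among 3 enolase-related ERR genes, ERR3 (chromosome XIII, 920088 to 921401) had 15.2% of its length under a peak of score 15, and ERR1 and ERR2, of the same length of 1314 bp, had none. Of 3 DUP240 membrane protein genes, MST28 (chromosome I, 28.4%, score 26) was touched, and PRM9 and UIP3 were not.

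The silent mating type loci of chromosome III keep unexpressed copies of the mating type genes. HMLALPHA1, the copy of the alpha1 activator gene (13282 to 13809), had 52.1% of its length under a peak of score 15, at 13501 to 13775, 13281 bp from the left end. HMLALPHA2, the adjacent copy of the alpha2 repressor gene, HMRA1 and HMRA2 had no peak. MATALPHA1, at the reference's expressed locus (200442 to 200969), has the same length of 528 bp and had no peak, as was looked up after the value of HMLALPHA1 was seen. The strain is MATa by its labels, so its expressed locus should not carry the MATALPHA1 gene of the reference. The lack of a peak there is therefore no contrast between copies in these cells. How reads were placed among the copies was not tested.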

How the data were processed

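Peaks of the S9.6 immunoprecipitate were called by the authors, and SAMtools 1.7, MACS2 2.1.1.20160309 and sacCer3 are named per the submitters' processing notes. Which aligner and threshold were used, and how the input entered, is not stated in those notes. The deposited peak list lists 1723 peaks, each with its position, its summit and the authors' whole-number score, of which 36 mitochondrial ones were left out. The deposited fold, p and q columns hold 0 throughout and were not used.

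Window bounds used sacCer3 chromosome lengths, taken as the known lengths of that build and checked against the last peak and gene ends, none of which passes them. Genes came from a RefSeq table of the R64 assembly. Ty ORFs were unnamed ORFs over 5000 bp that share their 5' end with a shorter unnamed ORF, with those partners. Families were matched by symbol, and 6 of 85 names listed one by one matched none. Members and lists were chosen with earlier results of these data known. Named genes are up to 4 most covered and 2 longest untouched members per family, genes at the 3 ends with most and least cover, those under the 20 highest peaks and covered genes. Exceptions are stated in the text. Counts were made in Python 3.11.15 with SciPy 1.17.1, and the window code returned every planted value in 20 of 20 simulated peak sets.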

Additional observations from a re-analysis of the deposited data

How the results depend on the processing

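The outer 50 kb stayed below the rest of the nuclear genome under each of the alternatives tried for this ratio, from 0.24 with peaks scoring 24 or more to 0.91 with peaks scoring under 24, a setting chosen after seeing the data. It was 0.62 with 200 bp around each summit. Against a rest stripped of the rDNA locus and of peaks on tRNA genes or Ty ORFs it was 0.61, with the outer 50 kb left whole. With peaks on tRNA genes or Ty ORFs left out on both sides it was 0.51. With peaks scoring 24 or more, the cover of the outer 50 kb was 1.44%, that from 5 to 50 kb 1.08%, 60 windows and 7 family genes were touched, and 10 ends had a peak in the outermost 5 kb. Around the summits the outer 50 kb had 1.82%, the outermost 5 kb 4.07%, 5 to 50 kb 1.57%, and 0 windows were covered, since 200 bp cannot fill 50% of a window unless summits lie close together. With peaks scoring under 24 the shares were 1.84%, 3.64% and 1.64% in the same order. Covered windows numbered 13 when peaks on tRNA genes or Ty ORFs were left out, 163 when 10% of a window sufficed and 4 when 90% was required. With 50% of the gene required, 2 family genes counted. Other settings ended each chromosome at its last gene or peak, shifted the windows by 500 bp or left out the end with most cover. Under these, no count tried moved by more than 1.5 times, and no share or ratio of bases left its interval. That interval treated each 1 kb window as 1 count. For a single end it is so wide that staying inside it says little. Among the 5 ends recomputed with chromosomes ended at their last gene or peak, the right end of XIII moved most, from 1.05% to 1.60%. No paired analysis was possible because the values come from 1 immunoprecipitate and 1 peak list. Depth and signal of the input over the repeated ends are unknown, which limits every value there.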
